A study of Homo sapiens with 20 samples.

Results

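OPM2 is an established human multiple myeloma line, a malignancy of plasma cells. The comparison described here is between cells exposed to 10 nM panobinostat for 20 h and cells exposed to the same dose for 5 h, with 2 independent biological replicates at each time, so that 4 of the 20 libraries of the series carry it. The other libraries were OPM2 cells in DMSO vehicle, cells in 10 nM panobinostat for 2 h, and cells in romidepsin (10 nM) or ricolinostat (100 nM) at the 3 times of 2, 5 and 20 h, each in 2 replicates. The DMSO group carries no time in its labels, and the treatment field of the ricolinostat libraries reads 10 nM where the titles, protocol and design read 100 nM. Poly(A) RNA was sequenced in paired, strand-specific libraries, and the deposited table gives whole-number read counts for 78932 gene identifiers, of which 20957 had enough counts to be tested. Counts per library came to 17264640 and 23580723 at 5 h and to 21983409 and 29088868 at 20 h. All genes tested were followed, and levels are given as CPM, read counts scaled to the library's effective size, in replicate 1 and then replicate 2. A single line grown without other cells limits what the groups model, and in bulk RNA fewer cells of a type and less RNA per cell cannot be told apart.

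Histone deacetylases (HDACs) remove acetyl groups from lysines of histones and of other proteins, and blocking them leaves chromatin more acetylated. Panobinostat is a hydroxamate that inhibits HDACs of several classes and has been used in myeloma, romidepsin is a cyclic depsipeptide that prefers class I HDACs, and ricolinostat is a hydroxamate that prefers HDAC6. Plasma cells make and secrete antibody, which needs a dedicated set of transcription factors, a large endoplasmic reticulum and constant disposal of misfolded protein.

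Between 5 h and 20 h, 5754 genes rose (27.5% of those tested) and 6049 fell (28.9%), at a Benjamini-Hochberg adjusted p under 0.05 in edgeR's quasi-likelihood test, and 9154 did not pass. Changes of at least 2-fold were found in 3138 genes that rose (15%) and 2166 that fell (10.3%). The libraries of the 2 times did not overlap in 16364 genes (78.1%). A 4-fold change was passed by 1787 genes upward and 731 downward, and a 16-fold change by 507 upward and 146 downward. The median log2 fold change over all genes tested was 0.05. With library size as the only scaling, that median was 0.23 and the calls were 7280 higher and 4724 lower, so that 60.6% of calls were higher in place of 48.8%. Changes below are relative to the trimmed-mean scaling of the main test, and total RNA per cell was not measured. In the preceding interval from 2 h to 5 h, which shares the 5 h libraries, 4147 genes rose (19.8%) and 4643 fell (22.2%).

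**Figure D1:**
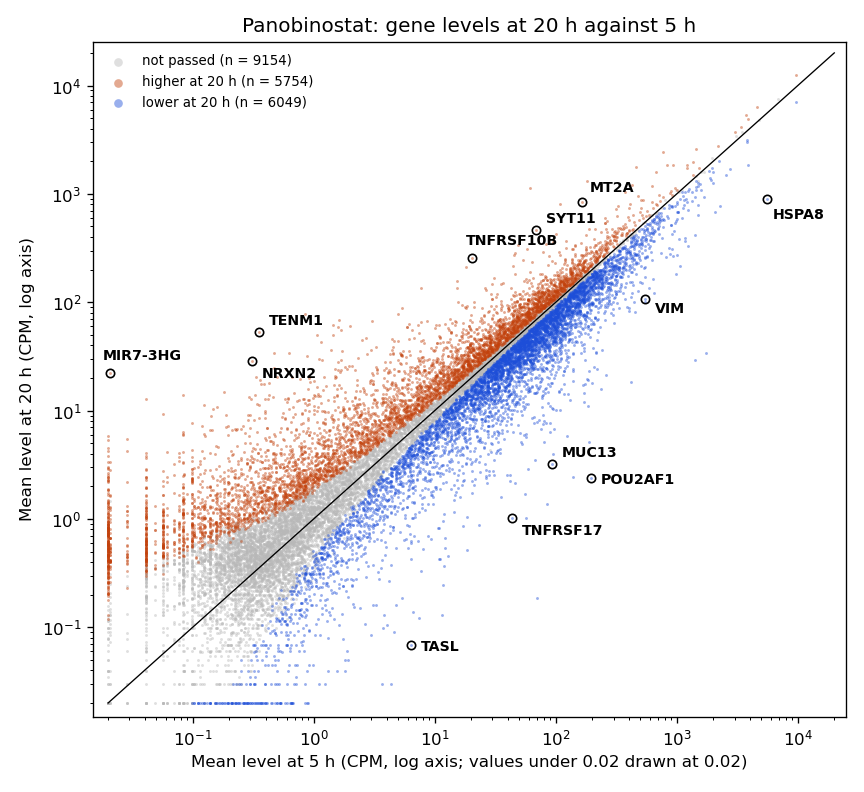
Mean level of each of the 20957 tested genes at 20 h against 5 h of panobinostat, in CPM on log axes, coloured by whether the gene was higher, lower or did not pass; circles mark 12 genes named in the text. POU2AF1 and HSPA8 lie far under the line of equal levels, while TENM1 and TNFRSF10B lie above it.

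Protein-coding genes fell more often than they rose, and long noncoding genes did the opposite. Of 13609 coding genes tested, 4043 rose (29.7%) and 5177 fell (38%), with a median log2 fold change of -0.04. Of 1812 genes annotated as long noncoding RNAs, 519 rose (28.6%) and 219 fell (12.1%), with a median of 0.50. Over all genes tested, 27.5% rose and 28.9% fell, so the noncoding genes stood apart in the share that fell. A gene silent at 5 h could be tested only through a group with enough reads, such as 20 h. The balance among low noncoding genes is thus partly set by that filter. Antisense genes numbered 1539, with 379 that rose and 154 that fell, though the strand setting of the counting is not given in the sources used here and reads from overlapping genes may be shared. Pseudogenes went the other way, with 90 that rose and 223 that fell of 1134 tested. Genes with a mean of at least 1 CPM numbered 13637 at 5 h and 14740 at 20 h. Chosen by their levels, 140 genes went from under 1 CPM at 5 h to at least 5 CPM at 20 h, 70 of them protein-coding, and 137 of these were also under 1 CPM in DMSO. In the opposite direction, 35 genes went from at least 5 CPM to under 1 CPM, 27 of them protein-coding.

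The plasma cell program fell. All 11 plasma cell marker genes were lower at 20 h, with a median log2 fold change of -2.92, and their summed level went from 1799 and 1743 CPM at 5 h to 438 and 447 CPM at 20 h. All 11 had counts at both times, which alone does not establish the labelled cell type. Of 18 genes for myeloma surface and secreted proteins, 17 fell and 1 rose, with a median of -2.14. Of 17 plasma cell transcription factors and regulators, 10 fell, 5 rose and 2 did not pass, with a median of -1.05.

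POU2AF1, the coactivator of octamer-binding factors in B lineage cells (chr11:111352252-111455630), stood at 384 and 368 CPM in DMSO and 361 and 361 CPM at 2 h. At 5 h it read 204 and 188 CPM, and at 20 h 2.54 and 2.25 CPM. The groups did not overlap, as in 78.1% of all genes tested. The level at 20 h was 81.9-fold lower than at 5 h (log2 fold change -6.36, SE 0.08, edgeR adjusted p = 1.5e-88). TNFRSF17 encodes BCMA, a receptor for plasma cell survival factors and a target of myeloma immunotherapy. Its level was 301 and 301 CPM in DMSO, 43.1 and 43.1 CPM at 5 h and 0.861 and 1.17 CPM at 20 h, a log2 fold change of -5.37 (SE 0.11, edgeR adjusted p = 5e-66). MZB1, an endoplasmic reticulum cochaperone of antibody assembly, went from 54.6 and 59.8 CPM to 0.9 and 1.11 CPM, 56.0-fold lower. For both genes the low level at 20 h continued a fall already seen at 5 h.

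IRF4, the factor on which myeloma cells depend, fell less, from 873 and 856 CPM to 316 and 320 CPM (log2 fold change -1.44, SE 0.04). PRDM1, the repressor that drives plasma cell differentiation, was at 516 and 514 CPM in DMSO, 71.4 and 61.5 CPM at 5 h and 8.22 and 9.14 CPM at 20 h, so that it was 7.57-fold lower at 20 h than at 5 h. IKZF1, an Ikaros family factor degraded by lenalidomide, went from 63.5 and 64.9 CPM to 8.1 and 8.9 CPM, 7.52-fold lower. These 3 regulators had separate libraries at the 2 times, as did 78.1% of all genes tested, and kept the same direction from DMSO onward. MYC, the growth-promoting factor downstream of IRF4 in myeloma, stood at 448 and 432 CPM in DMSO, 37.4 and 35.3 CPM at 5 h and 8.8 and 10.3 CPM at 20 h (log2 fold change -1.92, SE 0.07). Most of its loss on a linear scale thus came before 5 h.

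Among surface proteins, CD28, a costimulatory receptor, went from 57 and 55.3 CPM to 1.88 and 1.53 CPM, 33.2-fold lower. SLAMF7, the target of elotuzumab, went from 92.7 and 87 CPM to 5.4 and 7.28 CPM, 13.9-fold lower. Immunoglobulin constant genes are near-identical copies among which reads can be split, so single values are uncertain. IGHA2 read 10.6 and 12.2 CPM at 5 h and 0.0783 and 0.18 CPM at 20 h. IGLC2 read 11.2 and 130 CPM in the 2 libraries at 5 h and 0.196 and 0.18 CPM at 20 h, and the pair of libraries at 5 h stood far apart.

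Several genes were near their DMSO level at 5 h and far lower at 20 h. MUC13, a membrane mucin, read 93.9 and 88.4 CPM in DMSO, 91.7 and 91.9 CPM at 2 h, 94.2 and 91.6 CPM at 5 h and 3.8 and 2.68 CPM at 20 h, 29.2-fold lower than at 5 h (edgeR adjusted p = 1.9e-72). DCC, a netrin receptor, read 83.6 and 80 CPM in DMSO, 83.3 and 77.6 CPM at 5 h and 5.56 and 4.66 CPM at 20 h, 15.9-fold lower. NPAS3, a transcription factor of the nervous system, read 15.2 and 13 CPM in DMSO, 11.8 and 11.3 CPM at 5 h and 0.157 and 0.331 CPM at 20 h, 44.5-fold lower. In each of the 3 the 20 h libraries lay far under all the earlier ones. VIM, the intermediate filament vimentin, was already somewhat lower at 5 h, and read 635 and 653 CPM in DMSO, 552 and 534 CPM at 5 h and 106 and 107 CPM at 20 h, 5.1-fold lower.

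**Figure D2:**
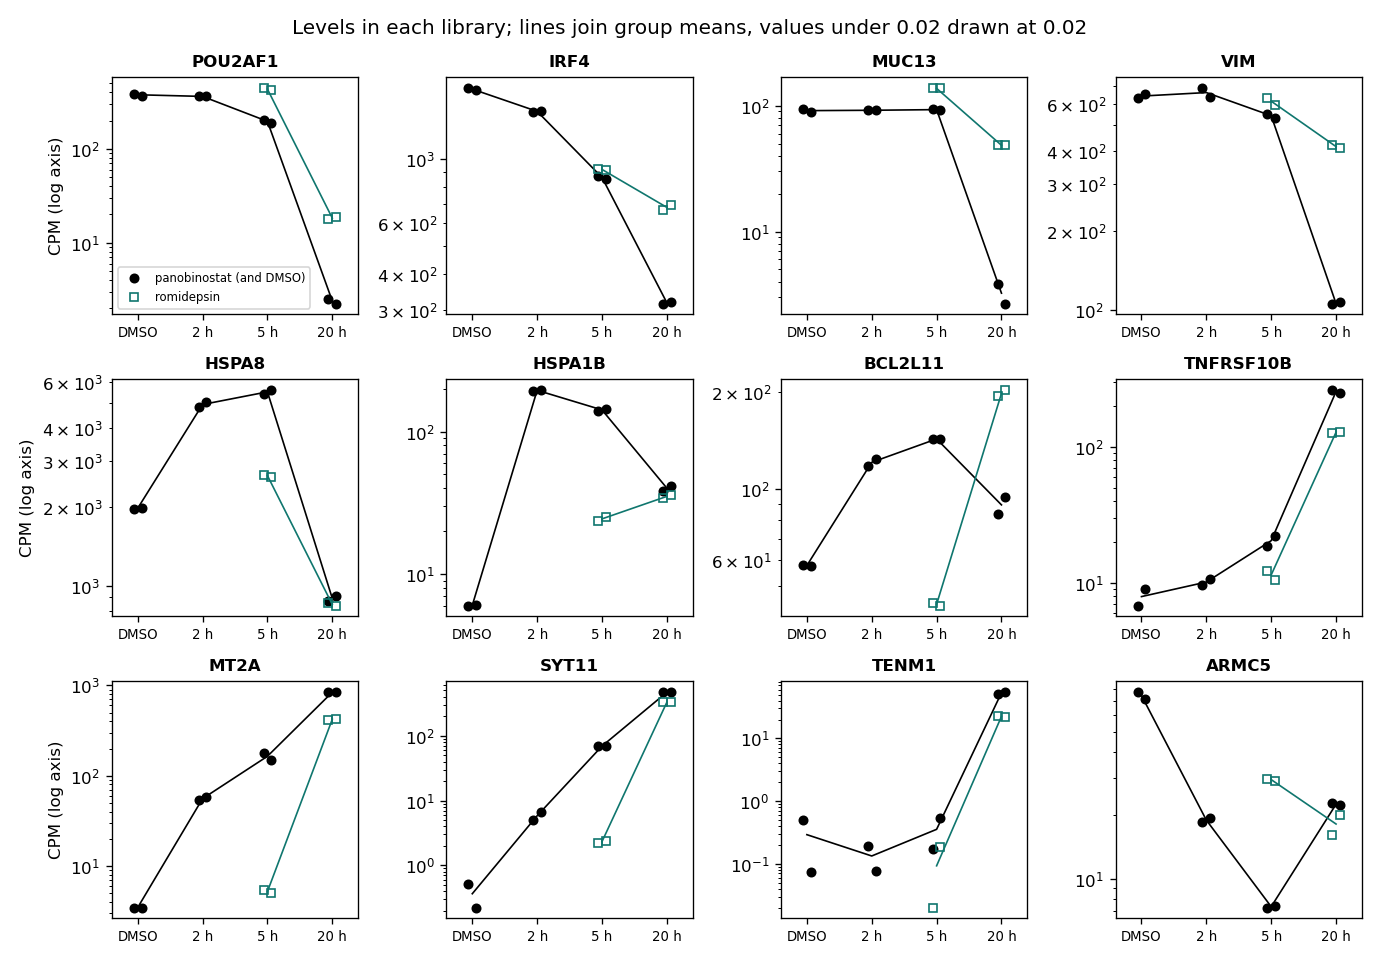
Level of 12 genes in every library, in CPM on a log axis, for DMSO and panobinostat at 2, 5 and 20 h (filled circles) and for romidepsin at 5 and 20 h (open squares); lines join group means of 2 libraries. MUC13 holds its DMSO level through 5 h and is far lower at 20 h, HSPA8, HSPA1B and BCL2L11 peak at 2 or 5 h, and ARMC5 dips at 5 h and recovers in part.

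TASL, an adaptor for endosomal Toll-like receptor signalling, was already low at 5 h, at 6.49 and 6.15 CPM against 55.9 and 55.3 CPM in DMSO, and fell to 0.0783 and 0.0601 CPM at 20 h. SLC38A5, a glutamine transporter, went from 186 and 192 CPM to 4.93 and 5.23 CPM, 37.1-fold lower. CTHRC1, a secreted collagen triple helix protein, went from 83.1 and 85.9 CPM to 1.02 and 1.74 CPM, 59.1-fold lower. With WDR72, which went from 18.3 and 18.2 CPM to 0.43 and 0.601 CPM, these were among the 12 largest falls of coding genes. FAM30A, a long intergenic RNA of the immunoglobulin heavy chain region, went from 620 and 618 CPM in DMSO to 138 and 138 CPM at 5 h and 2.78 and 2.07 CPM at 20 h, 57.7-fold lower than at 5 h.

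Genes of cell division fell together but by modest factors. Of 33 mitosis genes, 28 fell, 1 rose and 4 did not pass, with a median log2 fold change of -0.58. Of 15 G1 cyclins, their kinases and RB family genes, 12 fell, 1 rose and 2 did not pass, with a median of -0.50. Of 43 genes for DNA replication and nucleotide synthesis, 30 fell, 6 rose and 7 did not pass, with a median of -0.35. The CDK inhibitors split, with 3 higher and 3 lower of 6 tested.

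CCNB1, the mitotic cyclin B1, stood at 256 and 254 CPM in DMSO, 124 and 121 CPM at 5 h and 63.9 and 63.3 CPM at 20 h, 1.92-fold lower than at 5 h. FOXM1, a transcription factor of mitotic genes, went from 87.4 and 88.8 CPM to 37.8 and 35 CPM, 2.43-fold lower. PLK1, a mitotic kinase, went from 117 and 111 CPM to 62.7 and 75.2 CPM, 1.64-fold lower. All 3 were below their DMSO level at both times. ESPL1, the separase that cleaves cohesin, was still at 157 and 164 CPM at 5 h, near its 187 and 189 CPM in DMSO, and fell to 53.8 and 48.8 CPM at 20 h.

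The CCNB1 promoter is shown because mitotic genes share a known promoter element, the CCAAT box, and moved in the same direction. The sequence is the 250 bases upstream of the RefSeq start on GRCh38.p14, chr5:69166900-69167149, plus strand, with the 2 CCAAT matches in capitals.
CCNB1: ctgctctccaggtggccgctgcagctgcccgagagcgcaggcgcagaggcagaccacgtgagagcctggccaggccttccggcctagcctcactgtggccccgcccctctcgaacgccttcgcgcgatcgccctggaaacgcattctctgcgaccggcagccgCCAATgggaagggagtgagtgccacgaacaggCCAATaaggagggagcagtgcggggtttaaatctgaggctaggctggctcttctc
Of the 27 mitosis genes with a promoter in the RefSeq table, 20 held CCAAT on either strand (74.1%), against 33% of all 27305 promoters of the same length. The letters TTTGAA, the core of the cell cycle homology region, were in 13 of the 27 (48.1%) against 13.6% of all promoters. For DNA replication genes, TTTCCCGC, TTTGGCGC or TTTCGCGC, written after sites of E2F factors, stood in 13 of 36 promoters (36.1%) against 2.38% of all. Matches on either strand were counted, and a match describes letters and not binding.

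TYMS, the thymidylate synthase, fell the most of the replication genes, from 52.1 and 50.6 CPM to 5.09 and 5.2 CPM, 9.95-fold lower. MCM5, a subunit of the replicative helicase, went from 279 and 267 CPM to 99.1 and 97 CPM, 2.78-fold lower. In G1, CCND2, the D cyclin, went from 118 and 113 CPM to 23 and 23.2 CPM, 5.0-fold lower. CDK6, its kinase partner, went from 164 and 162 CPM to 35.4 and 33 CPM, 4.77-fold lower. Both had already fallen from DMSO, where CCND2 read 579 and 566 CPM and CDK6 513 and 525 CPM.

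The CDK inhibitors did not move as one. CDKN1A, which encodes p21, rose from 121 and 123 CPM to 310 and 320 CPM, 2.59-fold, after 55.6 and 54.1 CPM in DMSO. CDKN1C, which encodes p57, rose from 5.41 and 4.79 CPM to 22.5 and 23.4 CPM, 4.52-fold. CDKN2A, the locus of p16 and p14ARF, held 134 and 130 CPM in DMSO and 110 and 106 CPM at 5 h but read 10.2 and 10.2 CPM at 20 h, 10.6-fold lower.

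Genes for making proteins and for energy metabolism mostly fell. Of 40 ribosome biogenesis genes, 37 fell, 1 rose and 2 did not pass, with a median log2 fold change of -0.59. UTP4, a factor of small subunit processing, went from 130 and 128 CPM to 47.5 and 53.3 CPM, and WDR12, a factor of large subunit maturation, went from 171 and 161 CPM to 58.7 and 56.4 CPM. CACGTG, the E-box bound by MYC and its partners, stood in 2 of 34 promoters of this list (5.88%) against 6.49% of all promoters. Of 30 mitochondrial ribosomal protein genes, 21 fell, 1 rose and 8 did not pass, with a median of -0.44. Of 20 cytosolic tRNA synthetases, 12 fell, 3 rose and 5 did not pass, with a median of -0.20. YARS1, the tyrosyl-tRNA synthetase, went from 182 and 178 CPM to 74.9 and 69.7 CPM, 2.49-fold lower.

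Nuclear genes of oxidative phosphorylation fell in 34 of 41 cases, with 2 higher and 5 not passing and a median of -0.50. ATP5MC1, a subunit c gene of ATP synthase, read 155 and 162 CPM in DMSO, 141 and 139 CPM at 5 h and 33.3 and 33.7 CPM at 20 h, 4.18-fold lower than at 5 h. Transcripts of the mitochondrial genome took a larger share of counts at 20 h, with 4.59% and 4.74% at 5 h and 6.6% and 6.08% at 20 h, and the part of this share in the nuclear changes was not tested. Of 31 proteasome subunits, 24 fell, 5 rose and 2 did not pass, with a median of -0.38. PSMD8, a subunit of the regulatory particle, went from 110 and 106 CPM to 49.6 and 51.8 CPM, 2.13-fold lower. Of 27 splicing factors, 22 fell, 2 rose and 3 did not pass, with a median of -0.59. HNRNPA2B1, an abundant RNA-binding protein, went from 2304 and 2244 CPM to 783 and 772 CPM, 2.93-fold lower. Of 21 amino acid and glucose transporters, 13 fell, 6 rose and 2 did not pass, with a median of -0.62. SLC38A1, a glutamine carrier, went from 262 and 254 CPM to 22.1 and 20.1 CPM, 12.3-fold lower.

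Most cytosolic chaperone genes were lower at 20 h than at 5 h. Of 24 chaperones and cochaperones, 17 fell, 3 rose and 4 did not pass, with a median log2 fold change of -0.80, and the summed level of the list went from 16538 and 16713 CPM to 7425 and 7669 CPM. HSPA8, the constitutive HSP70, stood at 1965 and 1986 CPM in DMSO, 4832 and 5031 CPM at 2 h and 5419 and 5604 CPM at 5 h. At 20 h it read 876 and 911 CPM, 6.17-fold lower than at 5 h (log2 fold change -2.62, SE 0.03, edgeR adjusted p = 2e-84), and under every earlier library. HSPA1B, an inducible HSP70, stood at 6.01 and 6.04 CPM in DMSO, 194 and 196 CPM at 2 h, 139 and 145 CPM at 5 h and 38.5 and 41.6 CPM at 20 h, still above DMSO. Its near-identical neighbour HSPA1A read 13.3 and 12.8 CPM at 5 h and 3.99 and 4.3 CPM at 20 h, and how reads were split between the pair is uncertain. HSPH1, a nucleotide exchange factor of HSP70, went from 221 and 216 CPM to 45.8 and 43.3 CPM, 4.92-fold lower. The list also counts the mitochondrial chaperonin genes, and both fell, HSPD1 from 1265 and 1233 CPM to 331 and 326 CPM and HSPE1 from 43.8 and 43.2 CPM to 12.9 and 11.4 CPM. Unlike HSPA8, HSPD1 was near its DMSO level of 1230 and 1236 CPM at 5 h.

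The HSPA8 promoter is shown because heat shock factor 1 acts through inverted repeats of GAA and this gene had the largest change in CPM of the list. The 250 bases upstream of the RefSeq start lie on GRCh38.p14 at chr11:123062137-123062386, minus strand, with matches to the heat shock element, 3 alternating units of GAA and its reverse complement TTC each set 2 bases apart, in capitals on either strand.
HSPA8: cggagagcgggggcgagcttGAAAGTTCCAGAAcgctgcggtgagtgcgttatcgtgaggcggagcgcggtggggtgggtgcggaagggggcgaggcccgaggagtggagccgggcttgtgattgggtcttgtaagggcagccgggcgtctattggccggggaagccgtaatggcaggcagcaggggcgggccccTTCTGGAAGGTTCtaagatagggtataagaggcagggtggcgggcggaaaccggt
The element stood in 3 of 22 chaperone promoters (13.6%), against 0.439% of all promoters.

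In the endoplasmic reticulum, 20 of 23 genes of the unfolded protein response and folding machinery fell and 3 rose, with a median of -0.51. HSP90B1, the reticulum HSP90 also called GRP94, read 696 and 691 CPM in DMSO, 986 and 973 CPM at 5 h and 558 and 576 CPM at 20 h, 1.73-fold lower than at 5 h. HERPUD1, a component of reticulum-associated degradation, read 176 and 177 CPM in DMSO, 350 and 362 CPM at 5 h and 185 and 182 CPM at 20 h. Both had thus been above DMSO at 5 h and were close to or under it at 20 h. PDIA6, a disulfide isomerase, went from 227 and 225 CPM to 104 and 106 CPM, 2.15-fold lower. The HSP90B1 promoter carries 2 copies of the endoplasmic reticulum stress element, CCAAT followed at a fixed spacing by CCACG, in capitals, 1 on each strand, within the 250 bases upstream of its RefSeq start at chr12:103930160-103930409 (GRCh38.p14, plus strand).
HSP90B1: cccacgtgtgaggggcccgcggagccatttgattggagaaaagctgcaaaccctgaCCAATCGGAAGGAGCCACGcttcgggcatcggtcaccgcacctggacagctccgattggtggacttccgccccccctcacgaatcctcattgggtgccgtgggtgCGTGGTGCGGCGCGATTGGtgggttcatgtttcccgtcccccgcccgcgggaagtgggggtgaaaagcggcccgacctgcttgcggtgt
The element stood in 6 of 21 promoters of the list (28.6%) and in 0.0806% of all promoters.

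Genes of the integrated stress response, which ATF4 serves, split, with 13 lower, 6 higher and 7 not passing of 26. Among all coding genes, 38% were lower and 29.7% higher. SLC7A5, a leucine transporter subunit, held 993 and 986 CPM in DMSO and 1091 and 1047 CPM at 5 h, and read 216 and 217 CPM at 20 h, 4.93-fold lower than at 5 h. ATF3, a stress-induced factor, rose from 30.8 and 28.8 CPM to 111 and 104 CPM, 3.62-fold. The letters TGATGNAA, after the composite site of CHOP and ATF4, stood in 13.6% of the promoters of this list and 3.19% of all.

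Sterol synthesis and lysosome genes divided by member, where 29.7% of all coding genes tested rose and 38% fell. Of 23 sterol genes, 7 rose, 10 fell and 6 did not pass, with a median log2 fold change of -0.04; with library size as the only scaling, 4 fell. INSIG1, which retains the sterol sensor in the endoplasmic reticulum, rose from 780 and 758 CPM to 2452 and 2427 CPM, 3.17-fold, after 199 and 217 CPM in DMSO. EBP, a sterol isomerase, went from 62.7 and 53.7 CPM to 24.8 and 24.8 CPM, 2.34-fold lower. The sterol element TCACNCCAC was in 1 of 18 promoters of this list (5.56%) and 0.875% of all. Of 26 lysosome and autophagy genes, 11 rose, 10 fell and 5 did not pass, with a median of 0.02. NEU1, the lysosomal sialidase, rose from 429 and 424 CPM to 1217 and 1215 CPM, 2.85-fold, after 74.2 and 76.9 CPM in DMSO. PSAP, the precursor of the saposins, rose from 680 and 676 CPM to 1572 and 1615 CPM, 2.35-fold.

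Lists of apoptosis genes were divided. Of 11 pro-apoptotic BCL2 family genes, 3 rose, 4 fell and 4 did not pass, shares near the 29.7% and 38% of all coding genes. Of 9 anti-apoptotic genes, 4 rose, 4 fell and 1 did not pass. Death receptors and caspases fell in 10 of 15 cases, with 2 higher and 3 not passing and a median of -0.96. TNFRSF10B, the death receptor DR5 for TRAIL, went against its list. It stood at 6.86 and 9.09 CPM in DMSO, 9.72 and 10.7 CPM at 2 h, 18.9 and 22.1 CPM at 5 h and 261 and 247 CPM at 20 h, 12.3-fold above 5 h (log2 fold change 3.62, SE 0.08, edgeR adjusted p = 2.8e-63). CASP10, an initiator caspase, went from 76.4 and 76.3 CPM to 12.9 and 14 CPM, 5.65-fold lower.

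BCL2L11, which encodes BIM, peaked at 5 h, with 58.1 and 57.4 CPM in DMSO, 143 and 143 CPM at 5 h and 83.6 and 94.7 CPM at 20 h (log2 fold change -0.68, SE 0.05). BBC3, which encodes PUMA, rose from 8.32 and 7.34 CPM to 20.3 and 21.8 CPM, 2.7-fold. BID went from 17.1 and 17.4 CPM to 2.7 and 1.89 CPM, 7.66-fold lower. Among genes that protect cells, BCL2 went from 30.9 and 35.4 CPM to 4.77 and 5.44 CPM, 6.47-fold lower. CFLAR, the inhibitor of caspase 8 activation, went from 19.5 and 19.2 CPM to 3.6 and 4.93 CPM, 4.46-fold lower. MCL1, on which many myelomas rely, had risen from 672 and 665 CPM in DMSO to 993 and 1001 CPM at 5 h and returned to 662 and 688 CPM at 20 h.

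Genes of antigen presentation by MHC class I fell in 17 of 19 cases, with 2 higher and a median of -1.11. PSMB10, an immunoproteasome subunit, went from 20.5 and 25.5 CPM to 0.9 and 0.842 CPM, 26.6-fold lower (edgeR adjusted p = 1.8e-49). PSMB8, another such subunit, went from 56.3 and 51.6 CPM to 11 and 11.2 CPM, 4.85-fold lower. ERAP2, a trimming peptidase, went from 15.6 and 11.8 CPM to 1.8 and 1.98 CPM, and MICB, a ligand of a natural killer receptor, from 16.5 and 17.2 CPM to 2.86 and 3.28 CPM. In MHC class II, 8 of 13 genes rose, 2 fell and 3 did not pass, with a median of 1.93, though 5 rose in DESeq2 or with the first 5 h or the second 20 h library left out. Members of class II were mostly low, as with HLA-DPA1 at 2.45 and 1.57 CPM and then 7.47 and 7.55 CPM. CIITA, the master regulator of class II, moved down, from 28.1 and 33.2 CPM to 13.9 and 10.5 CPM, 2.55-fold lower. HLA-DRA read 24.7 and 26.6 CPM at 5 h and 29 and 27.8 CPM at 20 h, which did not pass (edgeR adjusted p = 0.17).

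Of 31 interferon-stimulated genes in the list, 27 could be tested, and 12 rose, 5 fell and 10 did not pass, with a median of 0.40. Over all coding genes tested, 29.7% rose and 38% fell. A member silent at 5 h could be tested only through other groups. The summed level of the tested members changed little, from 623 and 622 CPM to 660 and 659 CPM. ISG15, a ubiquitin-like modifier, read 2.71 and 2.8 CPM in DMSO, 5.87 and 4 CPM at 5 h and 29.9 and 28.8 CPM at 20 h, 6.05-fold above 5 h. IFI6 rose from 5.75 and 5.24 CPM to 34.7 and 36.5 CPM, 6.51-fold. IFI35 went the other way, from 15.5 and 13.1 CPM to 2.19 and 1.95 CPM, 6.88-fold lower. The promoters of the 2 genes that rose are shown for the core of the interferon-stimulated response element, a pair of GAAA with 2 bases between, in capitals and searched on either strand. They are the 250 bases upstream of the RefSeq starts on GRCh38.p14, chr1:1013247-1013496, plus strand, for ISG15 and chr1:27672193-27672442, minus strand, for IFI6, in which overlapping matches run together.
ISG15: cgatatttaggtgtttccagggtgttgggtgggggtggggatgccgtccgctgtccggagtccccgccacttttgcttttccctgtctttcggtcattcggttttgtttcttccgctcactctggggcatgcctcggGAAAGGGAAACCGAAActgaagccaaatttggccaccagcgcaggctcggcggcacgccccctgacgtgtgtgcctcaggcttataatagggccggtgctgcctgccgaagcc
IFI6: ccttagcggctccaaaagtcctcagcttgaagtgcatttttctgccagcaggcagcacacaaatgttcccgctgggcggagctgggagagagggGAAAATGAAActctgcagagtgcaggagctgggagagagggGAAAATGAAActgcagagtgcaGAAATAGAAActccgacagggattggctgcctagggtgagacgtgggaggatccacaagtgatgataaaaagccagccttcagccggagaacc
ISG15 held 2 matches and IFI6 held 3, while the letters stood in 12 of 20 promoters of the list (60%) and in 3.07% of all promoters.

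Immediate-early factors and MAP kinase brakes, genes that follow growth signals within minutes, rose in 21 of 29 cases, with 3 lower and 5 not passing and a median of 1.60. DUSP2, a MAP kinase phosphatase, was at 26.8 and 25.6 CPM in DMSO and 17.5 and 18.4 CPM at 5 h, and rose to 207 and 219 CPM at 20 h, 11.8-fold above 5 h (edgeR adjusted p = 2e-67). KLF2, a Kruppel-like factor, rose from 106 and 112 CPM to 784 and 836 CPM, 7.4-fold. EGR1 rose from 14.6 and 10.5 CPM to 43.5 and 42 CPM, 3.44-fold, and IER3 from 11.3 and 12.9 CPM to 63 and 63.7 CPM, 5.21-fold. NF-kB subunits and targets were divided, with 4 higher, 7 lower and 5 not passing of 16. Over all coding genes tested, 29.7% were higher and 38% lower. NFKB1, the p50 precursor, went from 30.9 and 28.8 CPM to 6.46 and 5.23 CPM, while NFKBIA, the inhibitor IkBa, went from 8.32 and 9.74 CPM to 27.2 and 32.1 CPM.

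All 3 metallothioneins that could be tested rose, of 10 in the list, with a median of 2.36. The count filter left out the other metallothioneins, and a low member could pass it through its 20 h level alone. These small cysteine-rich proteins bind zinc and copper, and members of the family are similar enough for reads to be shared. MT2A stood at 3.47 and 3.47 CPM in DMSO, 53.9 and 57.6 CPM at 2 h, 180 and 148 CPM at 5 h and 845 and 836 CPM at 20 h, 5.15-fold above 5 h (log2 fold change 2.36, SE 0.10, edgeR adjusted p = 1.4e-09). MT1X stood at 6.56 and 6.45 CPM in DMSO, 115 and 101 CPM at 5 h and 272 and 275 CPM at 20 h, 2.54-fold above 5 h. MT1G rose from 0.968 and 0.908 CPM to 6.77 and 5.89 CPM. MT1B, MT1M and MT3 had no counts in the 4 libraries. Metal response elements carry the core TGCNCNC, in capitals on either strand in the 250 bases upstream of the RefSeq starts on GRCh38.p14, at chr16:56608334-56608583 for MT2A and chr16:56682220-56682469 for MT1X, both plus strand.
MT2A: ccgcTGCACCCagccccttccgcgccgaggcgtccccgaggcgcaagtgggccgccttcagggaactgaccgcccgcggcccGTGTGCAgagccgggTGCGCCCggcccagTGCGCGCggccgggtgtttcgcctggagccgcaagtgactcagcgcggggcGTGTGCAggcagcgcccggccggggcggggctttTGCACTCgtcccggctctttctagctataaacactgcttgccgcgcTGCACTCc
MT1X: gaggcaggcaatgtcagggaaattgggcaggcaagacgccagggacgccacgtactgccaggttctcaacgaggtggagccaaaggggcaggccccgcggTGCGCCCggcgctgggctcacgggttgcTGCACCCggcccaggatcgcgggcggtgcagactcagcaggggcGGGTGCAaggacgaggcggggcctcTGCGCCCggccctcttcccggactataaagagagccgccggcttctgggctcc
MT2A held 7 matches and MT1X held 4, and this short core stood in 48.4% of all promoters.

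**Figure D3:**
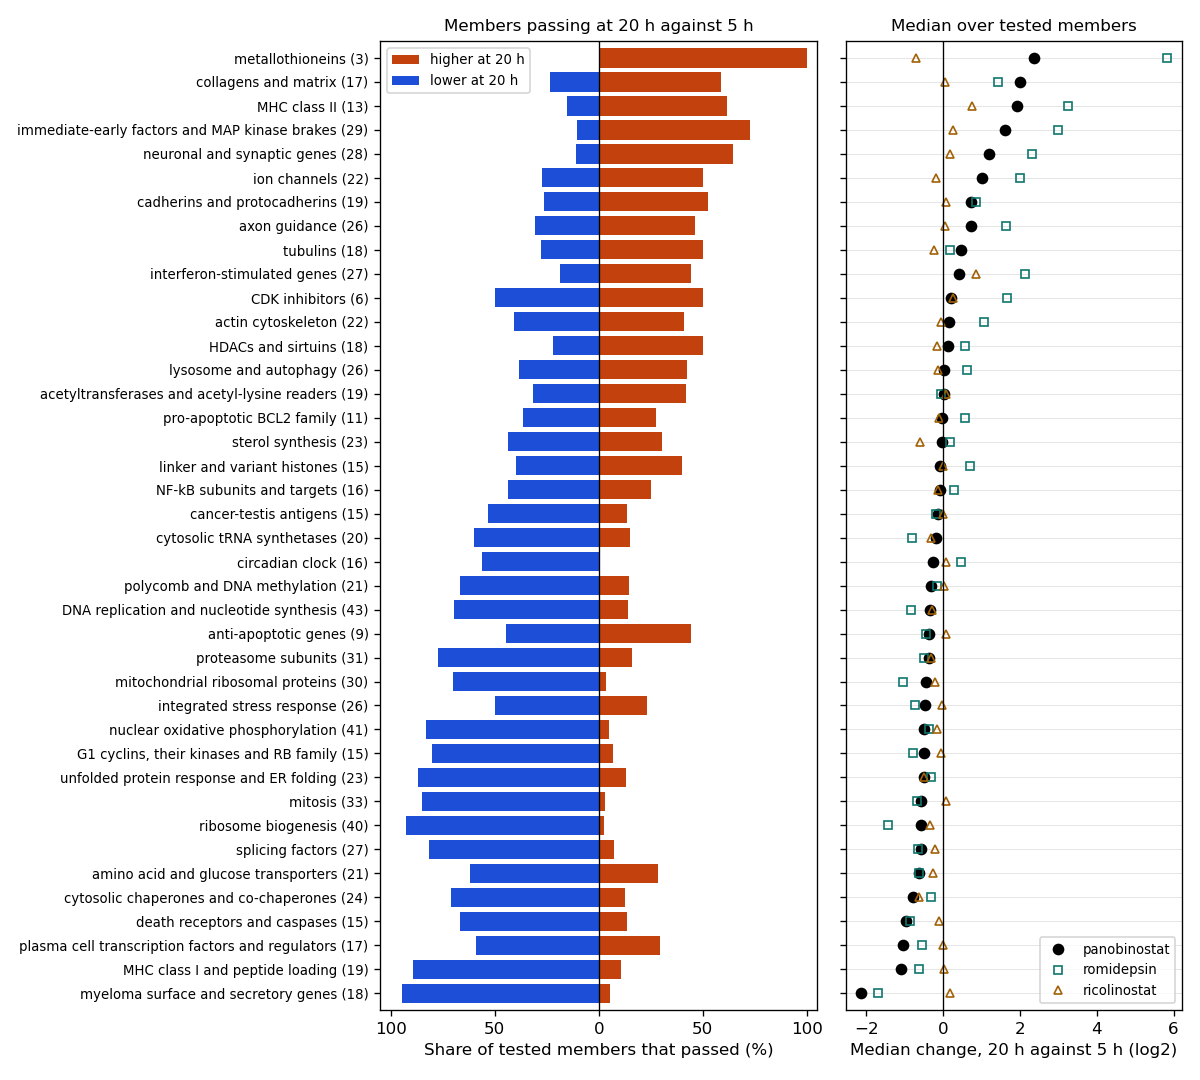
Left, share of tested members of each gene list that were higher (right of 0) or lower (left of 0) at 20 h than at 5 h of panobinostat, in percent, with the number tested in parentheses; right, median log2 fold change of the same members for panobinostat, romidepsin and ricolinostat. Metallothioneins and collagens lie at the top, myeloma surface genes and MHC class I at the bottom.

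Most neuronal genes that could be tested rose, many from low or silent levels. Of 36 neuronal and synaptic genes in the list, 28 could be tested, and 18 rose, 3 fell and 7 did not pass, with a median log2 fold change of 1.18. A gene silent at 5 h could be tested only through a group with enough reads, such as 20 h. The share that rose is thus partly set by that filter. SYT11, a synaptotagmin of vesicle traffic, read 0.508 and 0.224 CPM in DMSO, 4.95 and 6.71 CPM at 2 h, 69 and 69.3 CPM at 5 h and 464 and 472 CPM at 20 h, 6.77-fold above 5 h (edgeR adjusted p = 1.4e-67). TUBB3, the neuronal beta tubulin, read 15.6 and 15.6 CPM at 5 h and 99.9 and 102 CPM at 20 h, 6.45-fold higher. NES, the intermediate filament nestin of progenitor cells, went from 2.22 and 1.16 CPM to 55.2 and 56.6 CPM, 34.4-fold higher. All 3 were under 1 CPM in DMSO.

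Of 18 tubulins tested from a list of 19, 9 rose, 5 fell and 4 did not pass. Of 22 genes of the actin cytoskeleton tested from a list of 28, 9 rose, 9 fell and 4 did not pass. Coding genes as a whole rose in 29.7% of cases and fell in 38%. MSN, the membrane linker moesin, went from 593 and 596 CPM to 132 and 139 CPM. Of 30 axon guidance genes in the list, 26 could be tested, and 12 rose, 8 fell and 6 did not pass. SLIT2, a repulsive ligand, went from 1.82 and 1.16 CPM to 19.9 and 19.8 CPM. Of 25 cadherins and protocadherins in the list, 19 could be tested, and 10 rose, 5 fell and 4 did not pass. With a minimum count of 50 or with the second 5 h library left out, 6 rose. CDH2, the neural cadherin that myeloma cells can carry, went from 72.9 and 73.1 CPM to 20.6 and 21.8 CPM, 3.44-fold lower. Of 28 ion channels in the list, 22 could be tested, and 11 rose, 6 fell and 5 did not pass. KCNN3, a calcium-activated potassium channel, went from 211 and 213 CPM to 71.8 and 74.1 CPM. In all these lists a member silent at 5 h could be tested only through other groups. Summed levels went from 646 and 643 CPM to 565 and 582 CPM for axon guidance. They went from 609 and 609 CPM to 573 and 568 CPM for cadherins and from 384 and 389 CPM to 275 and 271 CPM for ion channels.

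Of 26 collagens and matrix genes in the list, 17 could be tested, and 10 rose, 4 fell and 3 did not pass, with a median of 2.00. The same limit of the count filter holds for members silent at 5 h. COL6A1 rose from 1.14 and 2.27 CPM to 34.5 and 36.3 CPM, 19.9-fold, and COL6A2 from 1.03 and 1.32 CPM to 28.7 and 29.7 CPM, 24.4-fold. COL1A1 rose from 3.99 and 4.99 CPM to 34.8 and 33.5 CPM. Markers of stromal and endothelial cells moved with these genes: 4 of 11 could be tested, 3 rose and 1 fell, and their sum went from 5.92 and 6.72 CPM to 37.9 and 36.4 CPM, most of it COL1A1, while LUM had no counts. Among markers of the other cell types, the sums went from 1.25 and 1.28 CPM to 1.76 and 1.92 CPM for T and NK cells (3 of 13 tested, 1 higher) and from 4.04 and 4.66 CPM to 7.4 and 7.43 CPM for myeloid cells (3 of 11 tested, 1 higher, no counts of S100A8, S100A9 and MPO). Sums for erythroid markers were 24.6 and 25.7 CPM and then 25.3 and 30.5 CPM (5 of 9 tested, 2 higher and 1 lower, no counts of 2 members, AHSP among them). The single epithelial marker tested of 9 did not pass, with sums of 0.968 and 1.11 CPM and then 1.57 and 0.902 CPM and no counts of KRT5, KRT19 and ESRP1. The part of other cells in these rises was not tested.

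The genes for the drug targets changed unevenly. Of 18 HDACs and sirtuins, 9 rose, 4 fell and 5 did not pass, with a median of 0.12, and 5 rose with the second 5 h library left out. Over all coding genes tested, 29.7% rose and 38% fell. HDAC6, the cytoplasmic tubulin deacetylase, read 70.5 and 67.8 CPM in DMSO, 54.6 and 54.5 CPM at 5 h and 156 and 156 CPM at 20 h, 2.86-fold above 5 h. HDAC7 and HDAC9, of class IIa, went the other way. HDAC7 went from 36.1 and 32.6 CPM to 8.3 and 6.85 CPM, and HDAC9 from 27.6 and 28 CPM to 5.91 and 7.13 CPM. In class I, HDAC1 rose from 184 and 199 CPM to 249 and 251 CPM and HDAC2 fell from 158 and 157 CPM to 92.7 and 95.6 CPM, with changes of 1.3-fold and 1.67-fold.

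Of 19 acetyltransferases and acetyl-lysine readers, 8 rose, 6 fell and 5 did not pass. For this list and every other list of this paragraph, the shares over all coding genes were 29.7% higher and 38% lower. EP300, the acetyltransferase p300, had fallen from 204 and 194 CPM in DMSO to 83.4 and 81.3 CPM at 5 h and read 174 and 166 CPM at 20 h, 2.06-fold above 5 h. BRD2, a bromodomain reader, rose from 313 and 314 CPM to 395 and 400 CPM. HEXIM1, an inhibitor of the elongation factor P-TEFb, rose from 16.8 and 15.1 CPM to 30.4 and 29 CPM, 1.87-fold. Of 21 polycomb and DNA methylation genes, 14 fell, 3 rose and 4 did not pass, with TET3, a 5-methylcytosine oxidase, going from 15.9 and 11.8 CPM to 4.54 and 4.87 CPM. Of 15 linker and variant histones, 6 rose, 6 fell and 3 did not pass, with H2BC21, a histone H2B gene, going from 17.5 and 16.1 CPM to 40 and 45 CPM. Of 16 circadian clock genes, 9 fell and 7 did not pass, with PER2 going from 34.9 and 32 CPM to 7.47 and 9.02 CPM. Of 15 cancer-testis antigens, 8 fell, 2 rose and 5 did not pass, with CTAG2 going from 174 and 172 CPM to 69.3 and 70.2 CPM.

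The largest rises were of genes with next to no reads at 5 h. TENM1, a teneurin of neuronal contacts (chrX:124375903-124963817), read 0.508 and 0.0745 CPM in DMSO, 0.171 and 0.536 CPM at 5 h and 51.9 and 55 CPM at 20 h (log2 fold change 7.11, SE 0.25, edgeR adjusted p = 9.9e-40). NRXN2, a neurexin, rose from 0.456 and 0.165 CPM to 28.9 and 28.5 CPM, and VGF, a secreted neuropeptide precursor, from 1.31 and 0.825 CPM to 49.1 and 50.6 CPM. CYP4F2, a fatty acid hydroxylase, read 0 and 0.0825 CPM at 5 h and 12.1 and 13.6 CPM at 20 h, a ratio of 270 with a 95% counting interval from 74.5 to 2234. XIRP1, a muscle actin-binding protein, read 0.114 and 0 CPM and then 9.94 and 8.57 CPM, a ratio of 191 with an interval from 52.7 to 1584. These intervals cover counting error only.

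The largest rise outside the coding genes was MIR7-3HG, the host gene of a copy of miR-7 (chr19:4769140-4772533). It read 0 and 0 CPM in DMSO and at 2 h, 0 and 0.0413 CPM at 5 h and 23.4 and 21 CPM at 20 h, a ratio of 920 with a 95% counting interval from 165 to 36362. The mature miRNA was not measured by these poly(A) libraries. Its RefSeq sequence (GRCh38.p14, chr19:4770700-4770723, plus strand) is shown with the seed, bases 2 to 8, in capitals.
hsa-miR-7-5p: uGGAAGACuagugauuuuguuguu

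Some genes were higher or lower at 5 h than both in DMSO and at 20 h, and were chosen for it, so they are described by values only. Among those highest at 5 h, SULF1, a heparan sulfate sulfatase, read 9.1 and 9.32 CPM in DMSO, 36.2 and 35.5 CPM at 5 h and 7.67 and 8.75 CPM at 20 h. GLRX, a glutaredoxin, read 8.55 and 9.8 CPM, then 71.9 and 64 CPM, then 19.1 and 20.7 CPM. Among those lowest at 5 h, COQ7, a hydroxylase of ubiquinone synthesis, read 18 and 18.5 CPM in DMSO, 5.35 and 5.36 CPM at 5 h and 19.1 and 20.1 CPM at 20 h. These values put SULF1 and COQ7 close to DMSO again at 20 h and GLRX still above it. ZNF414, a zinc finger gene, read 13.5 and 11.8 CPM, then 2.16 and 2.39 CPM, then 9.63 and 9.77 CPM. ARMC5 read 77.3 and 71.6 CPM, then 7.29 and 7.43 CPM, then 22.9 and 22.3 CPM, so it regained only part of its level. TNFRSF8, which encodes CD30, read 6.35 and 7.64 CPM, then 1.82 and 2.56 CPM, then 11.8 and 14.4 CPM, above DMSO.

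The change over the same interval with romidepsin, at the same dose in nM and the same times, shares no library with the panobinostat change. With romidepsin 6995 genes rose (33.4%) and 6157 fell (29.4%), and with 100 nM ricolinostat 3610 rose (17.2%) and 4335 fell (20.7%). The difference between the panobinostat and romidepsin changes passed edgeR's interaction test upward in 3307 genes (15.8%) and downward in 5200 (24.8%). Against ricolinostat, at a dose that differs, it passed upward in 3852 genes (18.4%) and downward in 4821 (23%). Of the genes that passed for both panobinostat and romidepsin, 8238 went the same way and 1158 went opposite ways, 410 with panobinostat higher and 748 with panobinostat lower. Among the 5304 genes changed at least 2-fold by panobinostat, 2146 differed from romidepsin.

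**Figure D4:**
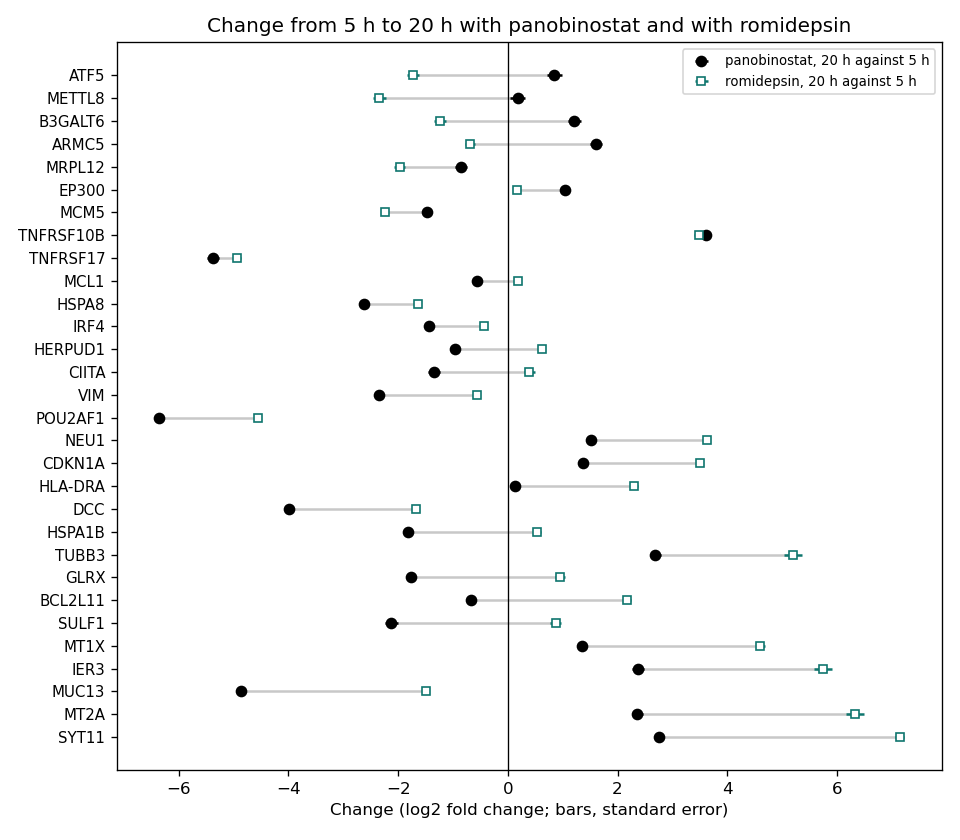
Log2 fold change from 5 h to 20 h with panobinostat (filled circles) and with romidepsin (open squares), with standard errors, for the genes whose difference is described; genes are sorted by the difference. The largest negative differences are at SYT11, MT2A and MUC13 and the largest positive ones at ATF5, METTL8 and B3GALT6; those of TNFRSF17 and TNFRSF10B did not pass.

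Several genes fell more with panobinostat than with romidepsin, and others fell with panobinostat and rose with romidepsin. MUC13 fell by 4.87 on the log2 scale with panobinostat and by 1.5 with romidepsin, a difference of -3.37. VIM fell by 2.35 and by 0.57, a difference of -1.78. POU2AF1 fell with both drugs, by 6.36 and by 4.56, a difference of -1.79, and IRF4 by 1.44 and by 0.44. MUC13, VIM and POU2AF1 were named for a large panobinostat change, which enters the difference, so theirs are values and not a test. For TNFRSF17 the falls of 5.37 and 4.93 differed by -0.45, which did not pass (edgeR adjusted p = 0.057). BCL2L11 showed opposite signs, with a fall of 0.68 against a rise of 2.18, a difference of -2.86 (edgeR adjusted p = 1.6e-54). At 5 h BCL2L11 read 143 and 143 CPM with panobinostat and 44.2 and 43.4 CPM with romidepsin. At 20 h it read 83.6 and 94.7 CPM and 194 and 203 CPM. HSPA1B fell by 1.82 and rose by 0.53, and HERPUD1 fell by 0.96 and rose by 0.62.

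Chaperones and biosynthesis lists parted in opposite ways. Of 24 chaperones, 17 had a lower change with panobinostat than with romidepsin and 2 a higher one, with medians of -0.80 and -0.32. Over all genes tested, 24.8% had a lower change and 15.8% a higher one. HSPA8 read 5419 and 5604 CPM with panobinostat and 2658 and 2612 CPM with romidepsin at 5 h. At 20 h it read 876 and 911 CPM and 855 and 838 CPM, so the drugs differed mainly at 5 h. Of 40 ribosome biogenesis genes, 34 had a higher change with panobinostat, meaning a smaller fall over this interval, with medians of -0.59 and -1.44. From 2 h to 5 h of panobinostat, 38 of the 40 had already fallen and 0 had risen. Of 43 replication genes, 31 likewise had a higher change, with medians of -0.35 and -0.84, as in MCM5 at -1.48 and -2.23. Of 30 mitochondrial ribosomal genes 23 did so, with medians of -0.44 and -1.05, as in MRPL12 at -0.86 and -1.97. Levels at 5 h differed between the drugs in both genes. MCM5 read 279 and 267 CPM with panobinostat and 476 and 450 CPM with romidepsin at 5 h. At 20 h it read 99.1 and 97 CPM and 102 and 94.6 CPM. MRPL12 read 18.5 and 17.1 CPM and 29.8 and 30.3 CPM at 5 h. At 20 h it read 10.7 and 9.02 CPM and 7.89 and 7.45 CPM.

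Rises were often smaller with panobinostat. Immediate-early genes had a lower change than with romidepsin in 21 of 29 cases and lysosome genes in 20 of 26, with NEU1 at 1.51 and 3.63. CDKN1A rose by 1.37 and 3.51 log2 units, a difference of -2.14. At 5 h NEU1 read 429 and 424 CPM with panobinostat and 59.8 and 56 CPM with romidepsin. At 20 h it read 1217 and 1215 CPM and 726 and 711 CPM. CDKN1A read 121 and 123 CPM with panobinostat and 48.5 and 50.5 CPM with romidepsin at 5 h. At 20 h it read 310 and 320 CPM and 558 and 570 CPM. MT2A rose by 2.36 and 6.33 and SYT11 by 2.76 and 7.14, from levels at 5 h that were higher with panobinostat, as the per-library plot of 12 genes shows. In the other direction, among genes chosen for the size of this difference and so given by values only, ARMC5 rose by 1.61 with panobinostat and fell by 0.69 with romidepsin, and ATF5, a stress response factor, rose by 0.85 and fell by 1.73. B3GALT6, a galactosyltransferase of proteoglycan synthesis, rose by 1.21 and fell by 1.24. TNFRSF10B rose by 3.62 and 3.48, and the difference of 0.14 did not pass (edgeR adjusted p = 0.37).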

How the data were processed

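OPM2 RNA was measured by sequencing of poly(A) RNA in 20 libraries, 2 per group, and no batch is given in the labels. The authors deposited raw read counts per gene, as whole numbers. The submitters' processing notes name HISAT2, featureCounts and SAMtools and the build GRCh38, with no versions, annotation or strand setting given in the sources used here. All 78932 rows name a gene, and symbols were matched for 61481 identifiers and gene types and positions from GENCODE 29 for 57356. An unset strand option or shared reads would alter antisense, overlapping and near-identical genes.

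Counts were tested with edgeR 4.0.16 in R 4.3.3. Genes passing edgeR's filter at a minimum count of 10 over the 10 groups were kept (20957), scaled by trimmed means and fitted with 1 term per group over all 20 libraries, so that groups share an estimate of the spread (biological coefficient of variation 0.0419). The robust quasi-likelihood F test was two-sided, with Benjamini-Hochberg adjustment over all genes tested and a threshold of 0.05. The standard error is the log2 fold change divided by the root of F. Differences between inhibitors are interaction terms of the same fit. A gene silent at 5 h could pass the filter through other groups alone, which favours rises among such genes. Total counts ran from 17264640 to 29088868. Ratios of genes with 1 to 3 reads in a group carry a 95% counting interval.

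The comparison, the gene lists and the rule for named genes were chosen with earlier results of these data known, so lists are described by counts and medians with no test. The rule took the largest rises and falls with at least 5 CPM and separate libraries, up to 4 members per list, a fixed set of defining genes, the genes most extreme at 5 h and the largest differences from the other inhibitors. Differences of genes at 0 counts with romidepsin at 5 h depend on the prior count and are not given. Some genes of the lists are not reported here by name. Alternatives were RLE or library-size scaling, no filter or a minimum count of 50, DESeq2 1.42.0, a replicate block, the 4 libraries alone, and leaving out each library.

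Replicate pairs were more different than sampling noise, with chi-square per degree of freedom of 2.56 at 5 h and 2.87 at 20 h. Tested on simulated counts for 20 h against 5 h over 19817 genes, the fit recovered 94.4% of 1.5-fold, 100% of 2-fold and 100% of 4-fold changes at 5 CPM or more, but 56.7%, 62.7% and 81.8% over all levels. At 5 CPM or more these shares rest on 36, 35 and 36 genes. The simulation gave every gene the same spread and changed few genes, unlike the data, so it does not give the recovery in the real libraries. Promoters and the miRNA are from RefSeq, GRCh38.p14.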

Additional observations from a re-analysis of the deposited data

Results flagged for a closer look

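These results stand out because the change from 5 h to 20 h differed between inhibitors in edgeR's test of the difference itself. Against romidepsin the panobinostat change was higher in 3307 genes and lower in 5200, and against ricolinostat, at another dose, it was higher in 3852 and lower in 4821. Differences below are the panobinostat minus the romidepsin log2 change, and each has an adjusted p under 0.05. For SULF1, GLRX, HSPA1B and ARMC5, extreme at 5 h, and for ARMC5, ATF5, B3GALT6 and METTL8, taken for the size of this difference, the values that chose the gene enter the difference, so theirs are a description and not a test. The other genes outside the fixed set of defining genes, such as MUC13 and POU2AF1, were named for a panobinostat change among the largest of all genes or of their list. That change enters the difference, so theirs are also a description. HLA-DRA was named by rank among the class II members that reached 5 CPM, though its panobinostat change of 0.14 was small and did not pass.

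In plasma cell and surface genes the difference was -1.79 for POU2AF1, -1.01 for IRF4, -3.37 for MUC13 and -2.31 for DCC. For the intermediate filament gene VIM it was -1.78. In stress genes it was -0.99 for HSPA8, -2.35 for HSPA1B and -1.57 for HERPUD1. HSPA8 and HERPUD1 had started from a higher level at 5 h with panobinostat than with romidepsin. HERPUD1 read 350 and 362 CPM at 5 h of panobinostat against 147 and 140 CPM with romidepsin. For the metallothioneins it was -3.97 for MT2A and -3.26 for MT1X. Both metallothioneins had started from a higher level with panobinostat, as MT2A read 180 and 148 CPM at 5 h against 5.36 and 5.05 CPM with romidepsin.

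Genes of growth arrest and death differed by -2.14 for CDKN1A, -2.86 for BCL2L11, -0.74 for MCL1 and -3.36 for IER3. CDKN1A, BCL2L11 and IER3 had started from a higher level at 5 h with panobinostat than with romidepsin. The class II genes CIITA and HLA-DRA differed by -1.74 and -2.16, where HLA-DRA rose by 2.30 with romidepsin and did not pass with panobinostat. Differences were -2.51 for TUBB3, -4.38 for SYT11, -2.12 for NEU1, -2.99 for SULF1 and -2.71 for GLRX. SULF1 and GLRX fell with panobinostat, by 2.12 and 1.77, and rose with romidepsin, by 0.87 and 0.95.

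Upward differences were 0.76 for MCM5, 1.11 for MRPL12, 0.87 for EP300, 2.31 for ARMC5, 2.58 for ATF5, 2.45 for B3GALT6 and 2.52 for METTL8. MCM5, MRPL12 and EP300 had started from a lower level at 5 h with panobinostat than with romidepsin. METTL8, a tRNA methyltransferase, fell by 2.34 with romidepsin and read 5.58 and 6.48 CPM at 5 h and 7.16 and 6.64 CPM at 20 h of panobinostat, which did not pass (edgeR adjusted p = 0.29).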

How the results depend on the processing

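The counts over all genes stayed within 1.5 times of 5754 higher and 6049 lower under every alternative tried except the 2-fold minimum, which left 3138 and 2166. They ran from 4262 to 4750 higher and 5614 to 5898 lower with 1 library left out, and were 5266 and 5305 in DESeq2, 6216 and 5601 with RLE scaling, 4963 and 5952 with no filter, 5109 and 5241 with a minimum count of 50 and 6323 and 6022 from the 4 libraries alone. The 5 genes called in opposite directions by the main and another scaling were all under library-size scaling. Of 451 list counts, 444 stayed within 1.5 times: sterol genes lower went from 10 to 4 with library-size scaling, MHC class II genes higher from 8 to 5 in DESeq2 and to between 5 and 7 with 1 library left out, cadherins higher from 10 to 6 with a minimum count of 50 and to between 6 and 7 with 1 library left out, and HDACs and sirtuins higher from 9 to between 5 and 7 with 1 library left out. Of 451 list medians, 126 moved by more than the members' median standard error, 34 of them with library-size scaling and 22 with a minimum count of 50. The sign changed under some alternative for 8 lists whose medians lay between -0.13 and 0.15, including sterol synthesis (-0.04, and 0.13 with library-size scaling) and lysosome and autophagy (0.02, and -0.04 without the first 5 h library). Of 1598 gene values, 1590 kept direction and side of the threshold and none reversed. HLA-DRA passed with RLE scaling (0.20), library-size scaling (0.31) and a minimum count of 50 (0.21), METTL8 with library-size scaling (0.35), and IGLC2 did not pass with the 4 libraries alone or in 3 of the 4 runs with a library left out. The cause was not tested.

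With the replicate number as a block, 5654 genes were higher and 6026 lower. Same-numbered 5 h and 20 h libraries did not deviate together over all genes tested (correlation of deviations -0.025). Such a value, with low counts included, cannot show whether the number pairs them. With 2 libraries a group and a low level, a change that did not pass was not detectable at this depth.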
